A study of Mus musculus with 12 samples.

Results

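The genes described here are the 5 subunits of the transcription factor NF-kB (Rela, Rel, Relb, Nfkb1 and Nfkb2) and 5 genes that restrain or modify it (Nfkbia, Nfkbib, Nfkbid, Nfkbiz and Tnfaip3). They were taken by symbol from a table of 24502 genes, and all 10 were found. All 10 passed the low-count filter, with at least 1503 counts in every library. RNA was sequenced from regulatory T (Treg) cells of 11-week-old mice in 4 groups of 3 libraries. The Gpx4-deficient cells carried the genotype Foxp3CreGpx4fl/fl, in which Cre recombinase expressed from Foxp3 removes a loxP-flanked Gpx4. The wild-type cells are labelled WT, with no Cre or loxP allele named. The Gpx4-deficient stimulated and wild-type stimulated cells had spent 4 h on anti-CD3 and anti-CD28 antibodies bound to the plate (5 μg/ml), and the Gpx4-deficient unstimulated and wild-type unstimulated cells had not. The labels give no culture time for unstimulated cells, so stimulation and culture cannot be told apart, nor can Cre expression and loss of Gpx4. The labels do not say whether the 3 libraries of a group came from separate mice, so p-values measure the spread between these libraries.

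NF-kB acts as dimers of its subunits. In the canonical route, engagement of the T cell receptor and CD28 activates the IKK kinases, which mark IkB proteins for degradation and release dimers containing Rela or Rel to the nucleus. In the non-canonical route, the precursor made by Nfkb2 is processed so that it can act with Relb. Several of the inhibitor genes are themselves NF-kB targets, which gives the pathway negative feedback, and Rel is known for its part in the development of Treg cells.

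Library totals ran from 24629230 to 31879267 counts. Levels are given as CPM, counts scaled to library size by the trimmed-mean (TMM) method. Gpx4 stood at 3.34 to 9.23 CPM in Gpx4-deficient stimulated libraries and 69.2 to 107.5 CPM in wild-type stimulated ones, and at 4.96 to 12.3 CPM in Gpx4-deficient unstimulated libraries and 142 to 172 CPM in wild-type unstimulated ones. All 7 markers taken for Treg cells (Foxp3, Il2ra, Ctla4, Ikzf2, Tnfrsf18, Cd4 and Cd3e) were detected in every group. Their summed level was 2999 to 7603 CPM, in which Il2ra, at 489 to 3228 CPM, weighed more than Foxp3. Foxp3 stood at 47.9 to 75.9 CPM in Gpx4-deficient stimulated and 33.7 to 43.5 CPM in wild-type stimulated libraries. Unstimulated, it stood at 22.3 to 36.7 CPM in Gpx4-deficient and 20.6 to 26.8 CPM in wild-type libraries. Summed markers of B cells, monocytes and macrophages, neutrophils, dendritic cells, CD8 and NK cells, and erythroid cells never exceeded 243 CPM for any of these lists in any library. The Gpx4-deficient stimulated libraries stood apart in the share of counts on mitochondrially encoded genes, 2.84% to 3.72% against 1.18% to 1.37% in wild-type stimulated ones. They also had fewer detected genes, 13981 to 14917 against 15217 to 15988. A lower level per library can come from fewer cells of a type or from less RNA per cell, and these cannot be told apart.

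Of the 10 genes, 7 have at least 1 entry among the RefSeq promoter windows used here (GRCm38.p6, 250 bases before to 50 after a start site), and Nfkb1, Relb and Nfkbiz have none. These 7 genes have 12 windows in all. A loose kappa B pattern, GGGNNNNNCC on either strand, occurs in 11 of the 12 windows and in 50.8% of all 32851 windows of this length, so its presence is common. A stricter pattern, GGGANTTTCC on either strand, which lies within the looser one, occurs in 3 of the 12 windows and in 0.411% of all windows. It is found in the window of Nfkbia at -29 from the start site, on the minus strand of the window, and in 2 overlapping windows of Nfkb2 that share a single site. Nfkbia and Nfkb2 are shown because they hold the stricter pattern, and Tnfaip3 because it was the gene that fell. Rel is shown as a gene with a single window that was higher after stimulation. Nfkbib also has a single window and was also higher after stimulation. Its window, which is not shown, is the one without the looser pattern. Whether either pattern goes with a rise was not tested. Capitals mark every match to the looser pattern, with overlapping matches run together. A match describes letters and not binding.
Nfkbia (chr12:55492598-55492897, minus strand): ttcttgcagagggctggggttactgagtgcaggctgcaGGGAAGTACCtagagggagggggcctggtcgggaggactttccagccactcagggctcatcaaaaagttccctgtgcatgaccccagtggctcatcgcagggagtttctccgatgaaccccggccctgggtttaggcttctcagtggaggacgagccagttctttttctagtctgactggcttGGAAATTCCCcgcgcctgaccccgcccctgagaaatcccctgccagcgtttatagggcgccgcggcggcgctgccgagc
Nfkb2 (chr19:46305445-46305744, plus strand): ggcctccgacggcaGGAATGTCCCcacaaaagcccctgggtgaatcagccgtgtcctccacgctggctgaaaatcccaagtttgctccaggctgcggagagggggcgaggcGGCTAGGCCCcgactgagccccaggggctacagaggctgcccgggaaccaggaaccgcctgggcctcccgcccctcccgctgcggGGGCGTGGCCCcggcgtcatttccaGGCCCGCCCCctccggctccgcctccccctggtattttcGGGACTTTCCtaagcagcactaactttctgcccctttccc
Rel (chr11:23770920-23771219, minus strand): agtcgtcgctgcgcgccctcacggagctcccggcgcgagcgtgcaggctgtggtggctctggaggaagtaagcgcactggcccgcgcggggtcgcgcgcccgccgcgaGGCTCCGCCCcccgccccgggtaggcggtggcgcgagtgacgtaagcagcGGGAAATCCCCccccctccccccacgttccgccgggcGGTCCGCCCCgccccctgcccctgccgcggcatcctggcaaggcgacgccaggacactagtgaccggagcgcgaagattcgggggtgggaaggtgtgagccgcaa
Tnfaip3 (chr10:19015361-19015660, minus strand): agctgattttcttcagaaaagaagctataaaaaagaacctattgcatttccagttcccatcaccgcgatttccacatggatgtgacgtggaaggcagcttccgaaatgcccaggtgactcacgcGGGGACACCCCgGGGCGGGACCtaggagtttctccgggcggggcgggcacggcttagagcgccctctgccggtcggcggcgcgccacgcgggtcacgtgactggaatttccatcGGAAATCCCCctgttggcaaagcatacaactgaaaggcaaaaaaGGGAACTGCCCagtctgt

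Most of the 10 genes changed with stimulation, and the subunits and inhibitors did not move as one block. In Gpx4-deficient cells 6 rose and 1 fell, and in wild-type cells 7 rose and 1 fell, by the edgeR quasi-likelihood test at an adjusted p under 0.05. Nfkb1, Nfkb2, Rel, Relb, Nfkbib and Nfkbid rose in both genotypes, Tnfaip3 fell in both, and Rela and Nfkbiz passed the test in neither. Nfkbia passed it in wild-type cells and not in Gpx4-deficient cells. For background, the test called 15.3% of 14827 tested genes in Gpx4-deficient cells (7.45% higher and 7.83% lower) and 11.5% in wild-type cells (6.12% higher and 5.41% lower). The median log2 fold change of the 10 genes was 0.80 in Gpx4-deficient and 1.24 in wild-type cells, beside -0.02 and -0.03 for all tested genes. All libraries of one state lay on the same side of the other state for 8 of the 10 genes in Gpx4-deficient cells and 9 of 10 in wild-type cells, beside 29.8% and 42.0% of all tested genes.

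Other measures moved with stimulation as well. Summed monocyte and macrophage markers were lower, at 65.2 to 89.9 CPM in Gpx4-deficient stimulated against 118 to 160 CPM in Gpx4-deficient unstimulated libraries, and at 25.8 to 63.2 CPM in wild-type stimulated against 135 to 243 CPM in wild-type unstimulated ones. Erythroid markers were higher in Gpx4-deficient stimulated than in Gpx4-deficient unstimulated libraries (19.8 to 21.4 against 13.2 to 17.5 CPM) and lower in wild-type stimulated than in wild-type unstimulated ones (4.93 to 7.53 against 19.9 to 33.7 CPM). In wild-type cells the B cell markers (13.9 to 24.0 CPM stimulated, 40.2 to 51.9 CPM unstimulated) and the CD8 and NK cell markers (8.42 to 16.5 CPM stimulated, 20.1 to 28.5 CPM unstimulated) were lower too, and the dendritic cell markers were higher (24.0 to 42.0 CPM stimulated, 4.95 to 20.6 CPM unstimulated). The mitochondrial share was 2.84% to 3.72% in Gpx4-deficient stimulated and 1.72% to 1.94% in Gpx4-deficient unstimulated libraries. Detected genes numbered 13981 to 14917 in Gpx4-deficient stimulated and 15126 to 17577 in Gpx4-deficient unstimulated libraries. In wild-type libraries they numbered 15217 to 15988 stimulated and 16229 to 16282 unstimulated. Foxp3 was higher with stimulation, at 47.9 to 75.9 against 22.3 to 36.7 CPM in Gpx4-deficient libraries. In wild-type libraries it was at 33.7 to 43.5 against 20.6 to 26.8 CPM. The lists hold 4 to 6 genes each, and at most 1 gene of a list was at 0 in a whole group. The part of these measures in the stimulation results was not tested.

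**Figure D1:**
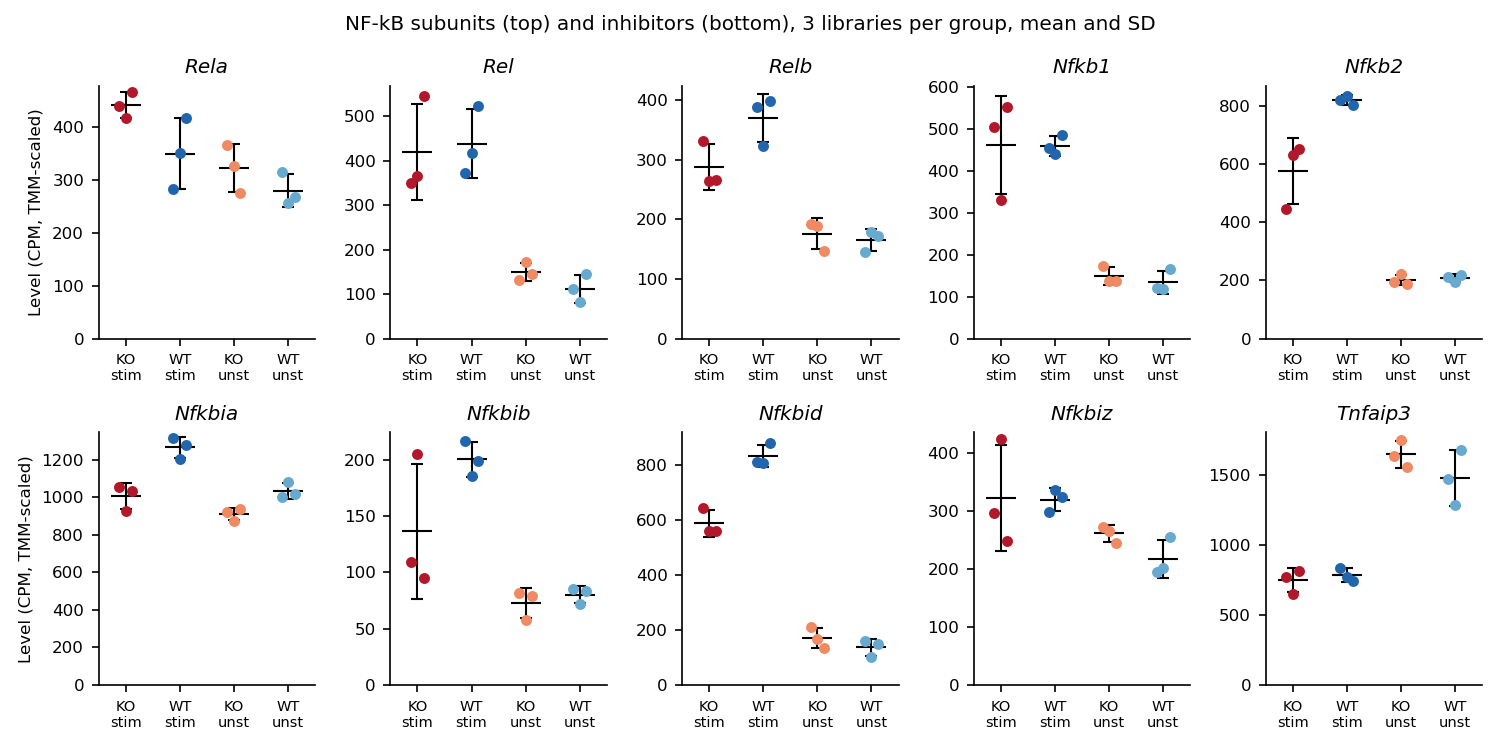
Level of each gene in CPM (y axis, from 0) in Gpx4-deficient stimulated (KO stim), wild-type stimulated (WT stim), Gpx4-deficient unstimulated (KO unst) and wild-type unstimulated (WT unst) cells; points are libraries, bars the mean and SD of 3. Nfkbid reached 559 to 644 CPM in Gpx4-deficient stimulated and 808 to 879 CPM in wild-type stimulated cells, and Tnfaip3 is the gene whose stimulated libraries all lie below the unstimulated ones.

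Rela encodes p65, a subunit with a transactivation domain that is the main partner of p50 in canonical signalling (chromosome 19, 5637483 to 5648130, GRCm38, plus strand). It measured 440.1, 418 and 467 CPM in Gpx4-deficient stimulated libraries and 282, 351 and 418 CPM in wild-type stimulated libraries, in the order of replicates 1 to 3. It measured 367, 327 and 276 CPM in Gpx4-deficient unstimulated libraries and 315, 257 and 269 CPM in wild-type unstimulated ones. The states did not overlap in Gpx4-deficient cells and overlapped in wild-type cells. The stimulation log2 fold change was 0.45 (SE 0.16, edgeR adjusted p = 0.0734) in Gpx4-deficient and 0.32 (SE 0.16, adjusted p = 0.243) in wild-type cells. The Gpx4-deficient value passed the threshold with DESeq2 (adjusted p = 0.0356) and with limma-voom (0.0414).

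Rel encodes c-Rel, the other transactivating subunit of the canonical route in lymphocytes (chromosome 11, 23736847 to 23770970, minus strand), and its start-site window is shown above. Its levels were 349, 367 and 545 CPM in Gpx4-deficient stimulated libraries and 372, 418 and 525 CPM in wild-type stimulated libraries. They were 133, 172 and 144 CPM in Gpx4-deficient unstimulated and 111, 81.8 and 145 CPM in wild-type unstimulated libraries. Every stimulated library lay above every unstimulated one, while the genotypes overlapped in both states. Rel rose by a log2 fold change of 1.49 (SE 0.23, edgeR adjusted p = 0.00112) in Gpx4-deficient and 1.96 (SE 0.24, adjusted p = 0.000169) in wild-type cells.

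Relb, which pairs with the processed Nfkb2 product in the non-canonical route, lies on chromosome 7 (19606217 to 19629438, minus strand). Its levels were 332, 264 and 266 CPM in Gpx4-deficient stimulated libraries and 388, 323 and 397 CPM in wild-type stimulated libraries. Unstimulated, they were 192, 189 and 147 CPM in Gpx4-deficient and 145, 179 and 172 CPM in wild-type libraries. The states were again separate, and replicate 1 of the Gpx4-deficient stimulated group fell within the wild-type stimulated range. The rise was 0.71 on the log2 scale (SE 0.15, edgeR adjusted p = 0.00848) in Gpx4-deficient and 1.16 (SE 0.15, adjusted p = 0.000322) in wild-type cells. With only the 6 Gpx4-deficient libraries in the fit, the Gpx4-deficient call was lost (adjusted p = 0.0626).

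Nfkb1 encodes the p105 precursor of p50, a subunit without a transactivation domain (chromosome 3, 135584655 to 135691547, minus strand). It measured 504, 329.5 and 551 CPM in Gpx4-deficient stimulated libraries and 454, 439 and 486 CPM in wild-type stimulated libraries. In unstimulated libraries it measured 173, 138 and 137 CPM in Gpx4-deficient and 119, 117 and 165 CPM in wild-type cells. Stimulated libraries were all higher, and replicate 2 was the low one of the Gpx4-deficient stimulated group. The log2 rise was 1.63 (SE 0.20, edgeR adjusted p = 0.00019) in Gpx4-deficient and 1.78 (SE 0.20, adjusted p = 9.68e-05) in wild-type cells. Nfkb1 overlaps the annotated gene Gm43430 on the same strand. Strand cannot separate reads of these genes, and whether any reads of Gm43430 were counted for Nfkb1 is not known.

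Nfkb2 encodes p100, which can itself hold Rel proteins in the cytoplasm and is the precursor of p52 (chromosome 19, 46304320 to 46312385, plus strand). It measured 446, 632 and 653 CPM in Gpx4-deficient stimulated libraries and 819.8, 835 and 802 CPM in wild-type stimulated libraries. It measured 195, 221 and 187 CPM in Gpx4-deficient unstimulated and 209.8, 194 and 219 CPM in wild-type unstimulated libraries. The stimulated libraries were all above the unstimulated ones, and the 3 wild-type stimulated values lay close together. The rise was 1.52 on the log2 scale (SE 0.14, edgeR adjusted p = 1.89e-05) in Gpx4-deficient and 1.98 (SE 0.14, adjusted p = 2.41e-06) in wild-type cells. Nfkb2 overlaps Psd and a non-coding gene on the opposite strand, and its counts were not whole in 11 libraries. The kit keeps strand, but the counting setting is not given in the sources used here, so reads of these genes may not be separable.

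Nfkbia encodes IkB alpha, the inhibitor that is degraded on activation and made again under NF-kB control (chromosome 12, 55489410 to 55492647, minus strand). Its window above holds the stricter pattern. Its level was 1056, 926 and 1030.1 CPM in Gpx4-deficient stimulated libraries and 1314, 1205 and 1278 CPM in wild-type stimulated libraries. Unstimulated, it was 920.4, 873 and 938 CPM in Gpx4-deficient and 1002, 1081 and 1015 CPM in wild-type libraries. Gpx4-deficient states overlapped and wild-type states did not. Its log2 fold change with stimulation was 0.14 (SE 0.08, edgeR adjusted p = 0.267) in Gpx4-deficient cells and 0.29 (SE 0.08, adjusted p = 0.0332) in wild-type cells. The wild-type call was lost without any 1 of the 6 wild-type libraries, with an adjusted p between 0.0502 and 0.114, and with no low-count filter (0.168).

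Nfkbib encodes IkB beta, a second cytoplasmic inhibitor that is degraded more slowly than IkB alpha (chromosome 7, 28758251 to 28767512, minus strand). It measured 109, 205 and 95.2 CPM in Gpx4-deficient stimulated libraries and 216, 185 and 199 CPM in wild-type stimulated libraries. Unstimulated, it measured 81.9, 57.8 and 79.4 CPM in Gpx4-deficient and 85.1, 71.9 and 83.8 CPM in wild-type libraries. Replicate 2 of the Gpx4-deficient stimulated group was about level with wild-type stimulated cells, while replicates 1 and 3 lay closer to the unstimulated ones. The log2 fold change was 0.90 (SE 0.26, edgeR adjusted p = 0.0375) in Gpx4-deficient and 1.32 (SE 0.26, adjusted p = 0.00589) in wild-type cells. In Gpx4-deficient cells the value was 0.49 without stimulated replicate 2 (adjusted p = 0.0961), and the call was also lost without unstimulated replicate 1 (0.059), 2 (0.13) or 3 (0.0791) and with limma-voom (0.0506). Nfkbib overlaps Sirt2 and Ccer2 on the opposite strand, with the same limit on strand as for Nfkb2.

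Nfkbid encodes IkB-NS, a nuclear IkB protein that is known to take part with c-Rel in the induction of Foxp3 (chromosome 7, 30421732 to 30428746, plus strand). It measured 644, 560.2 and 559 CPM in Gpx4-deficient stimulated libraries and 809, 808 and 879 CPM in wild-type stimulated libraries. Unstimulated, it measured 210.0, 166 and 136 CPM in Gpx4-deficient and 160.3, 102 and 148 CPM in wild-type libraries. The states were far apart in both genotypes, and Nfkbid had the largest rise of the 10 genes in each. That rise was 3.45-fold in Gpx4-deficient cells (log2 1.79, SE 0.19, edgeR adjusted p = 5.49e-05) and 6.09-fold in wild-type cells (log2 2.61, SE 0.19, adjusted p = 3.08e-06).

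Nfkbiz encodes IkB zeta, a nuclear IkB protein that acts as a coactivator for a subset of targets (chromosome 16, 55811375 to 55838899, minus strand). It measured 296, 424 and 248 CPM in Gpx4-deficient stimulated libraries and 298, 337 and 325 CPM in wild-type stimulated libraries. Unstimulated, it measured 273, 266 and 246 CPM in Gpx4-deficient and 195, 202 and 255 CPM in wild-type libraries. The wild-type states were separate and the Gpx4-deficient states overlapped. The log2 fold change was 0.30 (SE 0.18, edgeR adjusted p = 0.29) in Gpx4-deficient and 0.56 (SE 0.18, adjusted p = 0.072) in wild-type cells. The wild-type value passed the threshold with DESeq2 (adjusted p = 0.0419) and with only the 6 wild-type libraries in the fit (0.0144).

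Tnfaip3 encodes A20, a ubiquitin-editing enzyme that shuts down signalling to IKK (chromosome 10, 19000910 to 19015657, minus strand). It measured 773, 651 and 816 CPM in Gpx4-deficient stimulated libraries and 838, 772 and 741 CPM in wild-type stimulated libraries. Unstimulated, it measured 1637, 1748 and 1558 CPM in Gpx4-deficient and 1468, 1283 and 1681 CPM in wild-type libraries. Its direction was opposite to that of the other called genes, with every stimulated library below every unstimulated one. The log2 fold change was -1.14 (SE 0.12, edgeR adjusted p = 4.4e-05) in Gpx4-deficient and -0.91 (SE 0.12, adjusted p = 0.000227) in wild-type cells. The Tnfaip3 window above holds the looser pattern in 4 separate stretches, and the stricter one was not in either of its 2 windows.

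**Figure D2:**
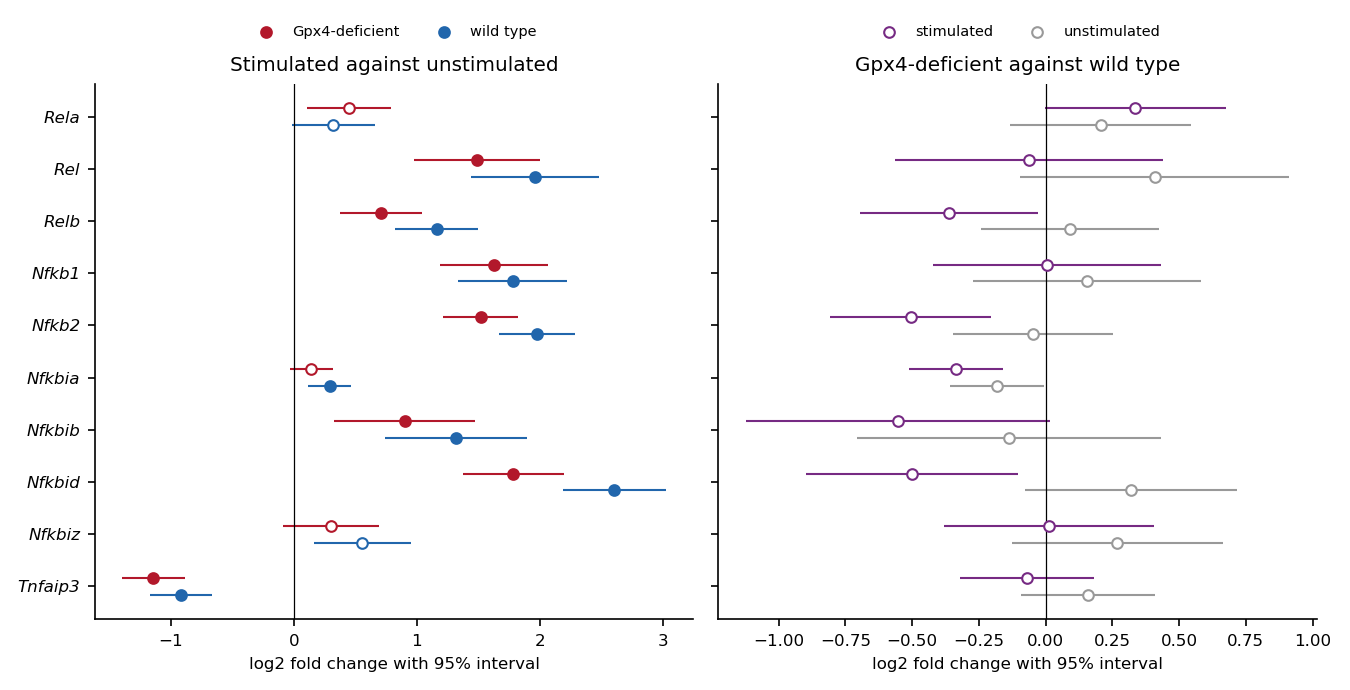
Log2 fold change (x axis) with its 95% interval for each gene, on the left for stimulation in Gpx4-deficient (red) and wild-type cells (blue), on the right for Gpx4 deficiency in stimulated (purple) and unstimulated cells (grey). Filled points passed an adjusted p under 0.05 and open points did not, so 7 red and 8 blue points are filled and none on the right are.

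Gpx4 deficiency changed none of the 10 genes past the edgeR threshold in stimulated cells, where 2.27% of all tested genes were called. At an unadjusted p under 0.05 there were 4 (Nfkb2, Relb, Nfkbia and Nfkbid), beside 2715 of the 14827 tested genes. All 4 had lower means in Gpx4-deficient stimulated cells. DESeq2 called 2 (Nfkb2 and Nfkbia) and limma-voom called 3 (those and Nfkbid), again lower. Over all tested genes DESeq2 called 1564 and limma-voom 473. Nfkb2, Nfkbia and Nfkbid had all 3 Gpx4-deficient libraries below all 3 wild-type ones, and Rela had all 3 above. For Rela the groups nearly touched, with 418.2 CPM as the lowest Gpx4-deficient and 417.5 CPM as the highest wild-type value. Beside this, 20.1% of all tested genes had groups that did not overlap. The median log2 fold change of the 10 genes was -0.20, beside 0.00 for all tested genes.

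Nfkbia averaged 1004 ± 68.9 CPM in Gpx4-deficient and 1266 ± 55.5 CPM in wild-type stimulated cells (SD, n = 3 each), a log2 fold change of -0.33 (95% interval -0.51 to -0.16, edgeR adjusted p = 0.0551). Without Gpx4-deficient stimulated replicate 1 the adjusted p was 0.0473. Nfkb2 averaged 577 ± 114 CPM in Gpx4-deficient and 819 ± 16.5 CPM in wild-type stimulated cells, a log2 fold change of -0.51 (interval -0.81 to -0.21, adjusted p = 0.0853). For Nfkbid, whose means were 588 ± 48.7 and 832 ± 40.8 CPM, it was -0.50 (interval -0.90 to -0.10, adjusted p = 0.178). These are the feedback inhibitor IkB alpha, the p100 precursor and the nuclear IkB-NS, and the intervals of all 3 exclude 0 while their adjusted p do not pass.

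Nfkbib had a similar difference of -0.55 (interval -1.12 to 0.02, edgeR adjusted p = 0.287) but overlapped, because of replicate 2. Without that library it was -0.93 (adjusted p = 0.0237), which passes. Relb was at -0.36 (interval -0.70 to -0.03, adjusted p = 0.239). In the other direction, Rela averaged 442 ± 24.7 CPM in Gpx4-deficient and 350.3 ± 67.6 CPM in wild-type stimulated cells, a log2 fold change of 0.34 (interval -0.0038 to 0.67, adjusted p = 0.279). For Nfkb1, Rel, Nfkbiz and Tnfaip3 the values lay between -0.07 and 0.01, with intervals that reached from -0.56 at the lowest to 0.44 at the highest, and the sign of each of these 4 turned without 1 library or another. The higher mitochondrial share and the lower number of detected genes moved with this comparison, as did summed monocyte and macrophage markers (65.2 to 89.9 CPM in Gpx4-deficient and 25.8 to 63.2 CPM in wild-type stimulated libraries) and erythroid markers (19.8 to 21.4 CPM in Gpx4-deficient and 4.93 to 7.53 CPM in wild-type stimulated libraries). Foxp3 was higher as well, at 47.9 to 75.9 CPM in Gpx4-deficient and 33.7 to 43.5 CPM in wild-type stimulated libraries. With library sizes taken without mitochondrial genes, 0 of the 10 were called here too. The part of marker levels in these values was not tested.

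In unstimulated cells, Gpx4 deficiency again changed 0 of the 10 genes past the edgeR threshold, where 0.0674% of all tested genes were called. At an unadjusted p under 0.05 there was 1, Nfkbia, beside 860 of the 14827 tested genes. DESeq2 and limma-voom each called 0 of the 10, beside 183 and 21 over all tested genes. Nfkbia averaged 910.4 ± 33.9 CPM in Gpx4-deficient and 1032 ± 42.6 CPM in wild-type unstimulated cells, a log2 fold change of -0.18 (interval -0.36 to -0.01, adjusted p = 0.861). It was the gene with separate groups, beside 18.3% of all tested genes. The other 9 had log2 fold changes between -0.14 for Nfkbib and 0.41 for Rel (interval -0.09 to 0.91, adjusted p = 0.966). The median was 0.16, beside 0.01 for all tested genes. Summed neutrophil markers (0.653 to 11.6 CPM in Gpx4-deficient and 22.1 to 64.7 CPM in wild-type unstimulated libraries), erythroid markers (13.2 to 17.5 against 19.9 to 33.7 CPM) and the mitochondrial share (1.72% to 1.94% against 1.21% to 1.38%) moved with this comparison, and their part in it was not tested.

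The interaction, which is the stimulation log2 fold change in Gpx4-deficient cells less the one in wild-type cells, was negative for 9 of the 10 genes and past the edgeR threshold for 0. It was called for 0.202% of all tested genes, and the median was -0.34, beside -0.01 for all. At an unadjusted p under 0.05 there were 2 genes, Nfkbid and Nfkb2, beside 1298 of the 14827 tested genes. DESeq2 and limma-voom each called 0 of the 10, beside 380 and 0 over all tested genes. The value for Nfkbid was -0.82 (interval -1.38 to -0.26, adjusted p = 0.385) and for Nfkb2 -0.46 (interval -0.88 to -0.04, adjusted p = 0.547). Rela had the positive value, 0.13 (interval -0.35 to 0.61, adjusted p = 0.953). The sign turned for Rela without wild-type stimulated replicate 1 and for Nfkb1 without Gpx4-deficient stimulated replicate 2. A response that passed in one genotype and not in the other, as for Nfkbia, was therefore not shown to differ between genotypes (-0.15, interval -0.40 to 0.09, adjusted p = 0.768). The comparisons share libraries, so their values for a gene are not independent of each other.

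Compared per length, as CPM per kilobase of exon (GENCODE M21), Nfkbia had the highest mean of the 10 genes in all 4 groups. It stood at 623 ± 42.8 in Gpx4-deficient stimulated, 786 ± 34.5 in wild-type stimulated, 565 ± 21.05 in Gpx4-deficient unstimulated and 641 ± 26.5 in wild-type unstimulated cells. The next gene was Nfkbid in stimulated cells of both genotypes, at 251 ± 20.8 and 355 ± 17.4 in Gpx4-deficient and wild-type cells. In unstimulated cells the next gene was Tnfaip3, at 228 ± 13.2 in Gpx4-deficient and 204 ± 27.6 in wild-type cells. Rel and Nfkb1 came last in every group on this scale. The place of Nfkb1 rests on its 12061 exonic bases over all transcripts, against 4149 in its longest one. Rank positions in the middle of the order, such as Relb, Nfkbiz and Nfkbib in Gpx4-deficient stimulated cells (74.0 ± 9.90, 64.4 ± 18.1 and 62.9 ± 27.5), did not differ beyond their spread.

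Among the 5 subunits, the balance per length moved away from Rela with stimulation. The sum over the subunits was 438 ± 37.9 CPM per kilobase in Gpx4-deficient stimulated and 485 ± 34.6 in wild-type stimulated cells, against 227 ± 24.2 in Gpx4-deficient unstimulated and 205 ± 10.9 in wild-type unstimulated cells. Rela made up 32.9% ± 1.52 of that sum in Gpx4-deficient stimulated cells and 23.4% ± 3.02 in wild-type stimulated cells. Unstimulated, its share was 46.3% ± 2.34 in Gpx4-deficient and 44.5% ± 3.90 in wild-type cells. The Gpx4-deficient stimulated libraries, at 31.6% to 34.6%, lay above the wild-type stimulated ones, at 20.1% to 25.9%. Nfkb2 made up 28.7% ± 4.80 in Gpx4-deficient stimulated and 37.0% ± 3.12 in wild-type stimulated cells, against 19.4% ± 1.67 in Gpx4-deficient unstimulated and 22.1% ± 0.377 in wild-type unstimulated cells. Depth does not enter a share within a library, but length does. With the longest transcript in place of all exonic bases, the Nfkb1 share moved to 19.4%, against 8.70%, in Gpx4-deficient stimulated cells, and the Rela share to 28.7% there and 20.6% in wild-type stimulated cells.

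**Figure D3:**
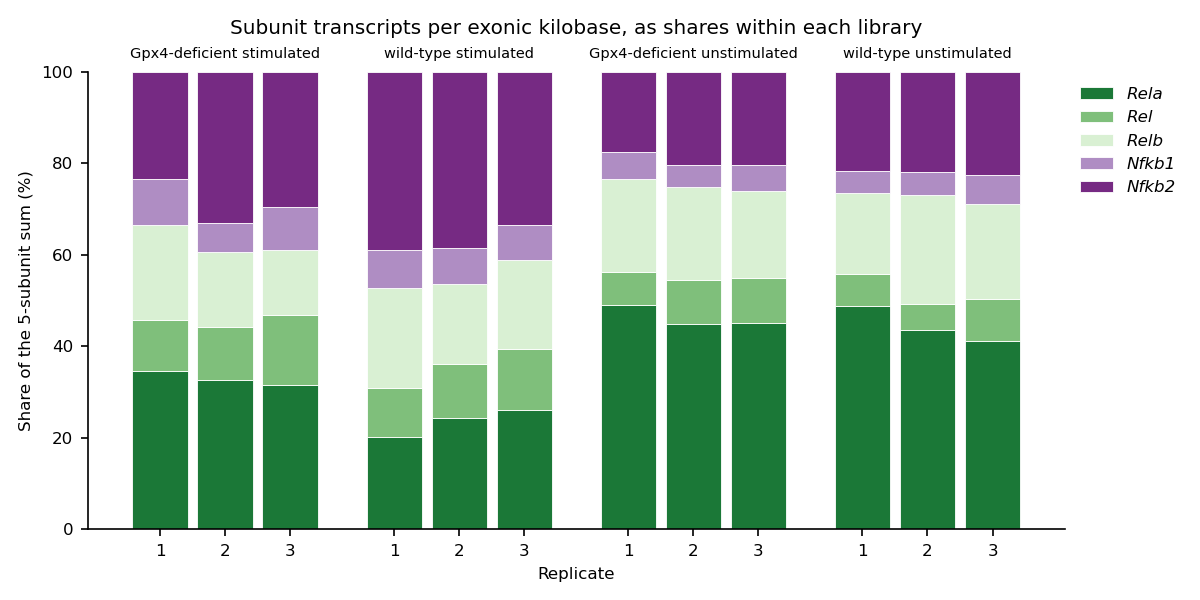
Share of each subunit in the sum of the 5, in percent of CPM per exonic kilobase (y axis, from 0), one bar per library, grouped as Gpx4-deficient stimulated, wild-type stimulated, Gpx4-deficient unstimulated and wild-type unstimulated. The dark green Rela segment is 31.6% to 34.6% in Gpx4-deficient stimulated and 20.1% to 25.9% in wild-type stimulated libraries.

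Ratios to Rela within a library do not depend on library scaling. All 4 share Rela as the denominator, so a difference in Rela enters each, and they are not independent of each other. Between genotypes in stimulated cells, Rela itself was at a log2 fold change of 0.34 (edgeR adjusted p = 0.279). Rel was at -0.06 there (adjusted p = 0.944). With 3 libraries against 3, the exact two-sided permutation test cannot go below 0.1, so none of the 16 tests over 4 ratios and 4 comparisons could pass a threshold of 0.05. The log2 ratio of Nfkbia to Rela was 2.19, 2.08 and 2.07 in Gpx4-deficient stimulated libraries and 3.15, 2.71 and 2.55 in wild-type stimulated libraries. All Gpx4-deficient values were lower, with a difference of -0.69 (exact p = 0.1). Unstimulated, it was 2.26, 2.35 and 2.70 in Gpx4-deficient and 2.60, 3.00 and 2.85 in wild-type libraries, which overlapped (difference -0.38, exact p = 0.2).

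The ratio of Relb to Rela also had all Gpx4-deficient stimulated libraries below the wild-type stimulated ones, with a mean log2 ratio of -0.97 ± 0.204 against -0.25 ± 0.32 (difference -0.72, exact p = 0.1). For Rel to Rela the means were -1.38 ± 0.288 in Gpx4-deficient and -0.95 ± 0.0726 in wild-type stimulated cells (difference -0.43, exact p = 0.1). For Nfkb1 to Rela the genotypes overlapped in stimulated cells, with means of -1.94 ± 0.324 and -1.57 ± 0.245 in Gpx4-deficient and wild-type cells (exact p = 0.2). With stimulation, Rel to Rela was 1.01 higher on the log2 scale in Gpx4-deficient cells and 1.68 higher in wild-type cells, and Nfkb1 to Rela was 1.15 and 1.49 higher, with no overlap between states (exact p = 0.1 for each). Relb to Rela was 0.85 higher in wild-type cells, again with no overlap (exact p = 0.1), and 0.25 higher with overlap in Gpx4-deficient cells (exact p = 0.2). Nfkbia to Rela went the other way in Gpx4-deficient cells, where all stimulated libraries were lower (difference -0.32, exact p = 0.1), and overlapped in wild-type cells (difference -0.01, exact p = 1).

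**Figure D4:**
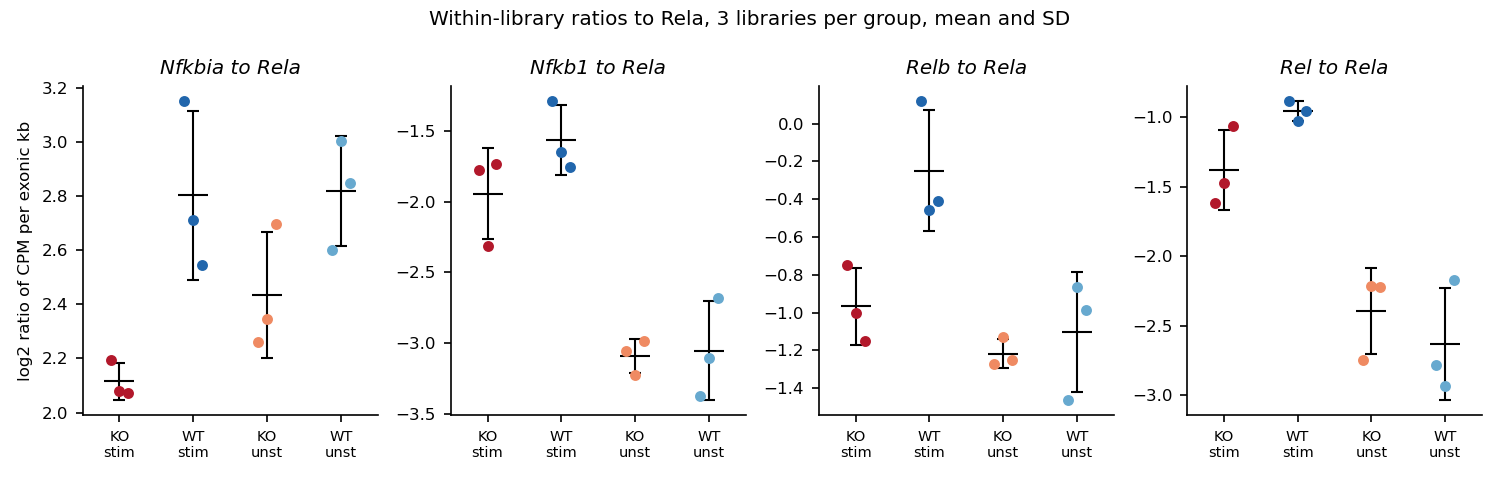
Log2 ratio of each named gene to Rela within a library (y axis, CPM per exonic kilobase), in Gpx4-deficient stimulated (KO stim), wild-type stimulated (WT stim), Gpx4-deficient unstimulated (KO unst) and wild-type unstimulated (WT unst) cells; points are libraries, bars the mean and SD of 3. For Nfkbia, Relb and Rel the 3 Gpx4-deficient stimulated points lie below the 3 wild-type stimulated ones. Rela is the denominator of every panel, so the panels are not independent of each other.

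The coefficient of variation, the SD as a percent of the mean, was larger in Gpx4-deficient than in wild-type stimulated cells for 9 of the 10 genes, the exception being Rela, with medians of 16.6% and 6.24%. Over all 14827 tested genes it was larger in Gpx4-deficient stimulated cells for 76.5%, with medians of 54.9% and 28.5%. In unstimulated cells it was larger in Gpx4-deficient cells for 4 of the 10, with medians of 13.6% and 12.2%, beside 65.5% of all tested genes, with medians of 33.4% and 23.2%. The deviating library was not the same for each gene: replicate 1 was low for Nfkb2, and replicate 2 was low for Nfkb1 and high for Nfkbib and Nfkbiz.

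Other genes of the pathway were taken from 6 lists with 63 genes in all, every one of which was tested. With stimulation, 22 were called higher and 8 lower in Gpx4-deficient cells, and 24 higher and 8 lower in wild-type cells. Beside this, 7.45% of all tested genes were called higher and 7.83% lower in Gpx4-deficient cells. In wild-type cells these shares were 6.12% and 5.41%. The 24 known T cell targets of NF-kB held most of the rises: 18 rose and 2 fell in Gpx4-deficient cells, and 19 rose and 3 fell in wild-type cells, with median log2 fold changes of 1.59 and 2.04. Irf4, a transcription factor of activated and effector T cells, averaged 908 ± 100.3 CPM in Gpx4-deficient stimulated and 736 ± 50.2 CPM in wild-type stimulated cells, against 52.0 ± 4.29 and 53.1 ± 9.38 CPM in the Gpx4-deficient and wild-type unstimulated cells. Its log2 rise was 4.13 (edgeR adjusted p = 2.38e-08) in Gpx4-deficient and 3.79 (adjusted p = 4.28e-08) in wild-type cells. Il2ra, the alpha chain of the interleukin-2 receptor, rose by 2.49 and 2.27 in Gpx4-deficient and wild-type cells. The costimulatory receptors Tnfrsf9 (4-1BB; 3.80 and 3.55) and Tnfrsf4 (OX40; 2.67 and 2.49) rose as well.

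Upstream genes went both ways. The paracaspase gene Malt1 rose by 1.48 on the log2 scale in Gpx4-deficient cells (edgeR adjusted p = 0.000128) and 0.92 in wild-type cells (0.00371). The ubiquitin ligase gene Traf6 rose by 1.15 (0.0135) and 1.64 (0.00179) in Gpx4-deficient and wild-type cells, and the Gpx4-deficient call was lost without unstimulated replicate 2 (adjusted p = 0.0533). The gene of the T cell receptor kinase PKC theta, Prkcq, fell in both, with log2 fold changes of -1.47 (0.000294) and -1.78 (6.74e-05). The IKK-related kinase gene Ikbke also fell, with -3.22 (1.34e-05) in Gpx4-deficient and -1.84 (0.000622) in wild-type cells. Tnip1, which encodes an A20 binding partner, fell as Tnfaip3 did, with -0.60 (0.0226) in Gpx4-deficient and -1.11 (0.000525) in wild-type cells. The Gpx4-deficient call for Tnip1 was lost without any 1 of the 3 unstimulated libraries or without stimulated replicate 2 (adjusted p 0.0505 to 0.104). Birc3, which encodes cIAP2, rose by 0.98 (0.011) and 1.12 (0.00546) in Gpx4-deficient and wild-type cells. With only the 6 Gpx4-deficient libraries in the fit, the Gpx4-deficient calls of Birc3 (0.0742) and Tnip1 (0.121) were lost. The further IkB genes Nfkbie and Bcl3 were called in neither, with log2 fold changes of -0.65 and -0.45 in Gpx4-deficient and -0.01 and -0.02 in wild-type cells.

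Between genotypes, 1 of the 63 genes was higher and 4 were lower in Gpx4-deficient stimulated cells by edgeR. At an unadjusted p under 0.05 there were 22, while DESeq2 called 14 and limma-voom 9. In unstimulated cells edgeR called 0 (14 at an unadjusted p under 0.05), DESeq2 4 and limma-voom 0. Over all 14827 tested genes in stimulated cells, edgeR called 337 (2715 at an unadjusted p under 0.05), DESeq2 1564 and limma-voom 473. In unstimulated cells the counts over all tested genes were 10 (860 at an unadjusted p under 0.05), 183 and 21. Malt1 averaged 279.5 ± 29.5 CPM in Gpx4-deficient and 140.0 ± 25.2 CPM in wild-type stimulated cells (log2 fold change 1.00, edgeR adjusted p = 0.0126). Of the 24 targets, 3 were lower in Gpx4-deficient stimulated cells and 0 higher, with a list median of -0.24. Bcl2l1, which encodes the survival protein Bcl-xL, averaged 279 ± 27.2 CPM in Gpx4-deficient and 513 ± 9.43 CPM in wild-type stimulated cells (-0.88, adjusted p = 0.00565). Junb, which encodes an AP-1 subunit, averaged 693 ± 99.6 CPM in Gpx4-deficient and 1207 ± 121 CPM in wild-type stimulated cells (-0.80, adjusted p = 0.0104). The Junb call was lost without wild-type stimulated replicate 1 (0.0742) or 2 (0.0723). Gadd45b, a stress response gene, was at -0.70 (0.0281) and Ikbke at -1.14 (0.0479), and each was lost without most single libraries: Gadd45b kept its call only without Gpx4-deficient stimulated replicate 3 and Ikbke only without Gpx4-deficient stimulated replicate 2. Leaving out 1 library, the number of called targets ran from 1 to 4. It was 6 with DESeq2 and with limma-voom. With only the 6 stimulated libraries in the fit, none of the 5 calls between genotypes held, with an adjusted p of 0.133 for Malt1, 0.067 for Bcl2l1, 0.119 for Junb, 0.165 for Gadd45b and 0.225 for Ikbke. The call of Ikbke was also lost with RLE scaling (0.0584), with limma-voom (0.109) and with library sizes taken without mitochondrial genes (0.0523).

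**Figure D5:**
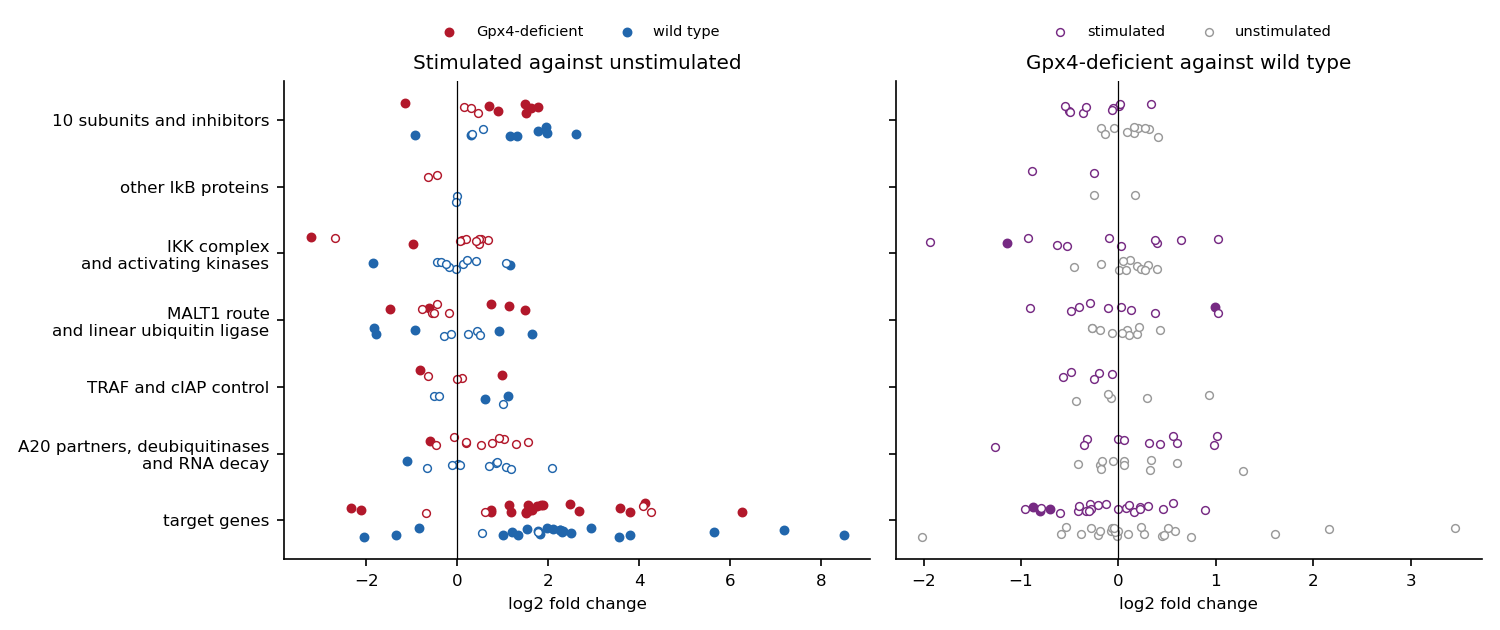
Log2 fold change (x axis) of the 10 subunits and inhibitors and of the genes in 6 further pathway lists, on the left for stimulation in Gpx4-deficient (red) and wild-type cells (blue), on the right for Gpx4 deficiency in stimulated (purple) and unstimulated cells (grey). Filled points passed an adjusted p under 0.05; on the left the target genes lie mostly above 0, and on the right 5 purple points are filled.

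Genes with the profile most like that of a member were named by the smallest root mean square difference of mean-centred log2 CPM over the 12 libraries, among 8793 candidate genes. For Nfkb2 this gave Hspa9 (0.115), Mat2a (0.186) and Notch2 (0.191). For Nfkbid it gave Lrrc32 (0.199), which encodes the Treg surface protein GARP, then Slc41a1 (0.218) and Map2k3 (0.233). Ctla4, an inhibitory receptor of Treg cells, was among the 3 nearest to Nfkb1 (0.20), with Eif3c (0.198) and Mat2a (0.209). For Tnfaip3 the nearest were Tmem50a (0.158), Actb (0.165) and Tspyl1 (0.165). The nearest gene was Larp1 for Rel (0.229), Safb2 for Rela (0.142), Fbl for Relb (0.126), Mdh1 for Nfkbia (0.106), Mybbp1a for Nfkbib (0.224) and Traf1 for Nfkbiz (0.156). Small differences come more easily to genes that vary little: the SD of the profile was 0.19 for Nfkbia and 1.20 for Nfkbid.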

How the data were processed

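The deposited table holds expected counts per gene, which the authors made with RSEM per the file name, on the GRCm38 build (per the submitters' processing notes). Aligner, annotation, strand setting and software versions: not given in the sources used here. Between 14.8% and 18.1% of values in a library were not whole, and expected counts were rounded. Library totals were 24629230 to 31879267 counts. No 2 libraries were identical.

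A single model of 4 group means was fitted to the 12 libraries (8 residual degrees of freedom) in edgeR 4.0.16 (R 4.3.3). It used TMM scaling, robust dispersions, the quasi-likelihood F test and filterByExpr, which kept 14827 genes. Genes were called at a Benjamini-Hochberg adjusted p under 0.05 over all tested genes. The SE is the log2 fold change divided by the root of F. The script was tested on simulated data. Alternatives used DESeq2 1.42.0, limma-voom 3.58.1, other scalings and filters, a replicate block, fewer libraries and other lengths. Replicate numbers 1 to 3 recur in every group, and the labels do not say whether same-numbered libraries are paired. Correlations of same-numbered deviations ran from -0.02 to 0.03, and those of different-numbered ones from -0.04 to 0.04. No pairing was seen, but such correlations cannot settle whether same-numbered libraries share a source, so the main fit treats libraries as unpaired. Exon lengths came from GENCODE M21 and promoter windows from RefSeq GRCm38.p6.

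The 10 genes, the lists and the tests were chosen with earlier results of these data known. All 10 were named in every comparison, and up to 4 genes per list in order of adjusted p; the Nfkbie and Bcl3 list has 2, and 1 list gene is counted but not reported here. Profile neighbours were limited to genes with a mean of at least 10 CPM (offset 0.5).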

Additional observations from a re-analysis of the deposited data

Results flagged for a closer look

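Among the genes named here, Junb had a stimulation response that differed between genotypes by a test of the difference itself. The log2 fold change in Gpx4-deficient cells less the one in wild-type cells was -1.26 (SE 0.19, adjusted p = 0.028, edgeR quasi-likelihood test of the interaction). Junb averaged 693 ± 99.6 CPM in Gpx4-deficient stimulated and 2981 ± 381 CPM in Gpx4-deficient unstimulated cells, against 1207 ± 121 CPM in wild-type stimulated and 2163 ± 229 CPM in wild-type unstimulated cells (SD, n = 3 each). The call was lost without 8 of the 12 libraries in turn, with an adjusted p between 0.0697 and 0.144 in those fits. It was also lost with limma-voom (0.058), with the replicate block (0.0598) and with the replicate block within genotype (0.172).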

How the results depend on the processing

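Over the alternatives, the log2 fold changes of the 10 genes kept their sign and their side of the threshold in 685 of 730 refits. They passed only in the refit in 11, failed only in the refit in 18 and changed sign in 16. Differences in log2 ratios kept their sign in 105 of 112 refits. Those refits with another transcript length were bound to keep it, since they shift the log2 ratio of every library alike. No value that changed sign passed the threshold in either fit. Between genotypes in stimulated cells, Nfkb1 was at -0.051 with limma-voom and -0.019 with the replicate block. Leaving out 1 library it ran from -0.14 to 0.23, Rel from -0.29 to 0.14, Nfkbiz from -0.20 to 0.17 and Tnfaip3 from -0.14 to 0.057. In unstimulated cells Nfkb2 ran from -0.0986 to 0.042 and Nfkbib from -0.21 to 0.028, and the interaction ran from -0.32 to 0.053 for Nfkb1 and from -0.0105 to 0.30 for Rela. The ratio to Rela ran from -0.19 to 0.11 for Nfkbia with stimulation in wild-type cells, and between genotypes in unstimulated cells from -0.20 to 0.15 for Nfkb1 and from -0.29 to 0.00635 for Relb. The number of the 10 genes called with stimulation ran from 5 to 8 in Gpx4-deficient cells and from 7 to 9 in wild-type cells. Between genotypes in stimulated cells it was 2 with DESeq2, 3 with limma-voom, and 0 to 1 leaving out 1 library.

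Counts over all genes depended more on the setting, and the cause was not tested. Between genotypes in stimulated cells, 337 genes were called (152 higher, 185 lower), against 1564 with DESeq2, 171 with the replicate block, 22 with only 6 libraries and 117 to 658 leaving out 1 library. The split was 159 higher and 314 lower with limma-voom. In unstimulated cells 10 were called, against 183 with DESeq2, 21 with limma-voom, 3 with the replicate block and 3 to 14 leaving out 1 library. For the interaction 30 were called, against 380 with DESeq2, 0 with limma-voom, 5 with the replicate block, 0 with the replicate block within genotype and 2 to 167 leaving out 1 library. Stimulation called 2266 genes in Gpx4-deficient cells, against 3609 with DESeq2 and 1022 with only 6 libraries, and 1709 in wild-type cells, against 2639 and 3499.

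Since it is not known whether same-numbered libraries are paired, the replicate block is given as a setting only. It ended the stimulation calls of Nfkbia in wild-type (adjusted p = 0.0552) and Nfkbib in Gpx4-deficient cells (0.0797) and no other call among the 10 genes. Each of these genes had at least 1503 counts in every library. What part depth and the spread between the 3 libraries of a group had in the precision was not tested.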
